A study of Mus musculus with 12 samples.

Results

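Laminins are the cross-shaped glycoproteins that form the sheet of a basement membrane, each built from 1 alpha, 1 beta and 1 gamma chain. The alpha chain carries the domains that cells bind through integrins and dystroglycan, while the beta and gamma chains are needed for assembly and for linking the sheet to nidogen and collagen IV. Vascular basement membranes are known for the chains encoded by *Lama4* and *Lama5*, muscle and stroma for *Lama2*, the early embryo for *Lama1*, and epithelia for *Lama3* with *Lamb3*. The 9 laminin chain genes described here were the rows of the deposited gene table whose Ensembl identifiers carry the symbols *Lama1*, *Lama2*, *Lama3*, *Lama4*, *Lama5*, *Lamb1*, *Lamb2*, *Lamb3* and *Lamc1*. They are 9 of 35727 genes in the table. All 9 passed the filter on low counts that left 15506 genes to test.

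Bulk RNAseq was measured in cardiac fibroblasts taken from pooled hearts of C57BL/6J neonates, depleted of PECAM1+ cells and selected for THY1. The cells of all groups were grown on collagen in the endothelial medium EGM2 and infected with pMX retrovirus. Cultures that received *Sox17* and *Erg* together (*Sox17*-*Erg*) were compared with cultures that received the pMX control (control) in 6 groups of 2 libraries, taken at Day 3, Day 7 and 4 weeks. Retroviral expression in these vectors is not restricted to a cell type, the methods name no sort of the infected cells before RNA isolation, and in these bulk samples fewer cells of a type and less RNA per cell cannot be told apart. Nothing in the labels says that the 2 libraries of a group come from separate isolations, and p-values then measure only the spread between these samples.

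Library totals ran from 19011635 to 41240449 counts. *Sox17* had 0 to 9 counts in the control libraries and 10019 to 36238 in the *Sox17*-*Erg* libraries. *Erg* had 2 to 49 and 389 to 1842 counts. Gene counts do not separate the retroviral copies from the endogenous genes. The summed level of the 7 endothelial markers listed was 16.3 to 56.2 CPM (counts scaled to library size with TMM factors) in the control libraries and 309 to 704 in the *Sox17*-*Erg* libraries, and all 7 had counts. Replicate 2 of the control held more *Cdh5*, the endothelial cadherin, than replicate 1 at Day 3 (14.3 against 0.909 CPM) and at Day 7 (8.07 against 0.23 CPM). The 6 fibroblast markers summed to 8228 to 24944 CPM in control and 6900 to 28200 CPM in *Sox17*-*Erg* libraries, and all 6 had counts in every library. *Col1a1* was the largest term of each sum, and single fibroblast markers differed between the treatments at 4 weeks, with values beside *Lama5*. The 3 epithelial markers summed to no more than 1.93 CPM in any library.

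With *Sox17*-*Erg*, the alpha chain genes *Lama1*, *Lama3* and *Lama4* were higher than in control at all time points, and *Lama5* was far higher at 4 weeks. The gamma chain gene *Lamc1* was higher at Day 7 and 4 weeks. Among the beta chain genes *Lamb1* was modestly higher at Day 7 and 4 weeks, and the scarce *Lamb3* was lower then. *Lama2* and *Lamb2* passed the test at no time point. At Day 3, 3 of the 9 chains were called higher and 0 lower, where 7.19% of all tested genes were called higher and 5.13% lower. The 0 called lower by edgeR was 1 at an unadjusted p under 0.05 and 0 by DESeq2. At Day 7 there were 5 higher and 1 lower, beside 9.48% and 7.93% of all tested genes, and at 4 weeks 6 higher and 1 lower, beside 11.9% and 11.0%. Calls rest on edgeR's quasi-likelihood test, with p adjusted by Benjamini and Hochberg over all tested genes and a threshold of 0.05, and every adjusted p given here comes from it unless DESeq2 is named. The median log2 fold change of the 9 chains was 0.38, 0.93 and 1.07 in order of time, and that of all tested genes was 0.01, 0.01 and -0.01.

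**Figure D1:**
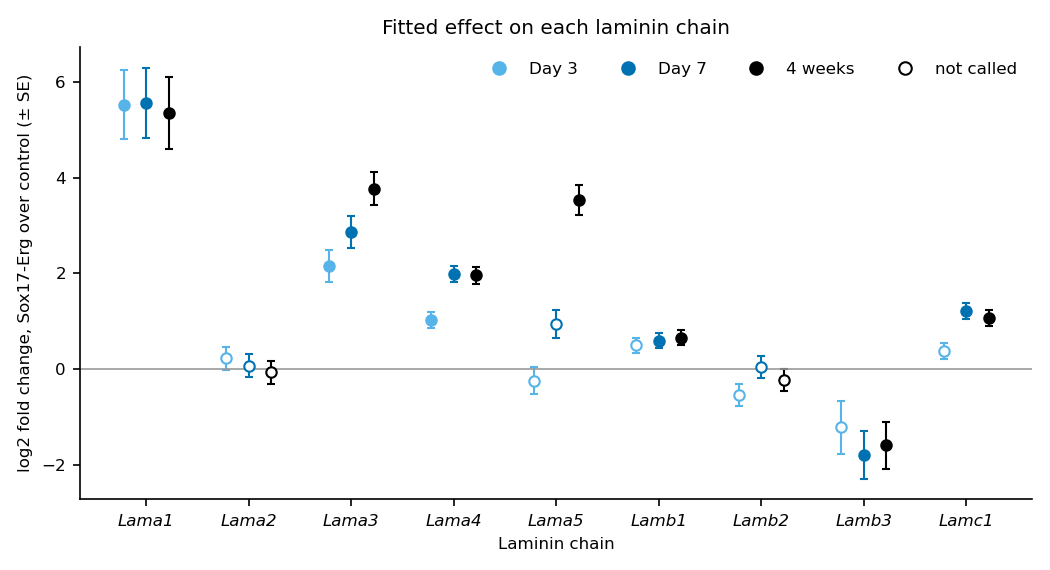
Log2 fold change of *Sox17*-*Erg* over control for each laminin chain at 3 time points, with the SE of the edgeR fit, 2 libraries against 2 at each time point. Filled points were called at an adjusted p under 0.05. *Lama1* lies between 5.35 and 5.57 at every time point, while *Lama5* goes from -0.24 at Day 3 to 3.53 at 4 weeks.

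The Day 3 count fell when replicate 1 of either treatment at Day 3 was left out, which leaves 1 library in that group. Fewer of all tested genes were then called as well. Without any 1 library, the Day 3 log2 fold change stayed at 1.76 to 2.44 for *Lama3* and 0.81 to 1.23 for *Lama4*. Without replicate 1 of the control at Day 3, only *Lama1* was called, with an adjusted p of 0.063 for *Lama3* and 0.067 for *Lama4*. Without replicate 1 of *Sox17*-*Erg* at Day 3 it was again only *Lama1*, with 0.060 and 0.076. The calls of *Lama1* at each time point, of *Lama3*, *Lama4* and *Lamc1* at Day 7 and 4 weeks and of *Lama5* at 4 weeks held without any 1 of the 12 libraries.

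The 5′ flanks of *Lama5* and *Lamb1* are shown because both genes were called higher and the retroviruses encode an ETS factor (*Erg*) and a SOX factor (*Sox17*). The sequences are from RefSeq on GRCm38.p6, which held a promoter for 5 of the 9 chains. Of the 250 bases before the annotated start, the part outside the gene in GENCODE M21 is printed 5′ to 3′ on the strand of the gene, with GGAAG or its reverse complement CTTCC, the core bound by ETS factors, in capitals.
Lama5, chr2:180225860-180226109, minus strand: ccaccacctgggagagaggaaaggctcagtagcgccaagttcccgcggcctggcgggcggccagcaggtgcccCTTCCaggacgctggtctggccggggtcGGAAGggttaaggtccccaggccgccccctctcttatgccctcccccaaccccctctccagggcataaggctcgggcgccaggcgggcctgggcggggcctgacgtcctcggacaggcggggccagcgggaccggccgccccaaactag
Lamb1, chr12:31265043-31265233, plus strand: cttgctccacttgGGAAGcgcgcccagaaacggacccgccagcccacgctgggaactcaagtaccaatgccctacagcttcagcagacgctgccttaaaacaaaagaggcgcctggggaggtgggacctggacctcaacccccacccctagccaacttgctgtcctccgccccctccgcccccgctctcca
The ETS letters occurred 2 times in the window of *Lama5* and 1 time in that of *Lamb1*. They also occurred 2 times in the window of *Lamb2* and 4 times in that of *Lama2*, genes that were called at no time point. *Lamb3*, called lower at Day 7 and 4 weeks, had 4 in 1 of its windows and 0 in the other. The letters of *Lama2*, *Lamb2* and *Lamb3* lie inside the gene as GENCODE M21 annotates it, and those of *Lama5* and *Lamb1* outside. Of all 32851 promoter windows, 64.1% held them on either strand. The SOX letters ACAAT or ATTGT, which overlap no ETS letters here, were in no window of the chains and in 27.7% of all windows.

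*Lama1* (ENSMUSG00000032796, chromosome 17, 67697259 to 67822647 on GRCm38) encodes the alpha chain of the first embryonic laminins. It was near the bottom of detection in control, with 31 and 12 counts (1.13 and 0.555 CPM) at Day 3, 19 and 16 counts at Day 7 and 15 and 14 counts at 4 weeks. *Sox17*-*Erg* libraries had 60.8 and 19.1 CPM at Day 3, 47.9 and 17.4 CPM at Day 7 and 21.7 and 15.9 CPM at 4 weeks. Every *Sox17*-*Erg* library was above every control library, and replicate 1 was the higher of the 2 at each time point. Replicate 1 also had more *Sox17*, with 781 against 432 CPM at Day 3, 999 against 790 CPM at Day 7 and 1036 against 914 CPM at 4 weeks, and the part of this in the level of *Lama1* was not tested. The fitted log2 fold change was 5.53 ± 0.73 (SE), 5.57 ± 0.74 and 5.35 ± 0.75 in order of time (adjusted p = 0.00295, 0.00144 and 0.00124). Its effect at 4 weeks differed from that at Day 3 by -0.18 ± 1.09 on the log2 scale (adjusted p = 0.965), an interval wide enough to hold a change of several fold. The 3 *Sox17*-*Erg* groups overlapped their neighbours in order of level, from Day 3 over Day 7 to 4 weeks.

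*Lama3* (ENSMUSG00000024421, chromosome 18, 12333819 to 12583013) encodes the alpha chain of epithelial laminins and has a short isoform that other tissues use. Control libraries had 2.47 and 3.00 CPM at Day 3, 3.11 and 2.09 CPM at Day 7 and 1.13 and 2.15 CPM at 4 weeks. *Sox17*-*Erg* libraries had 14.9 and 9.56 CPM at Day 3, 17.9 and 20.0 CPM at Day 7 and 23.8 and 20.1 CPM at 4 weeks. The groups did not overlap at any time point, and the 3 *Sox17*-*Erg* groups stood in the order of time with no overlap between neighbours. In order of time, *Lama3* differed by 2.16 ± 0.33, 2.86 ± 0.34 and 3.77 ± 0.35 on the log2 scale (adjusted p = 0.00603, 0.000818 and 0.000136). The increase of the effect from Day 3 to 4 weeks, 1.62 ± 0.46, missed the threshold (adjusted p = 0.109). An annotated gene on the opposite strand, *Gm29200*, overlaps its exons, and the gene counts cannot show which isoform was expressed.

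**Figure D2:**
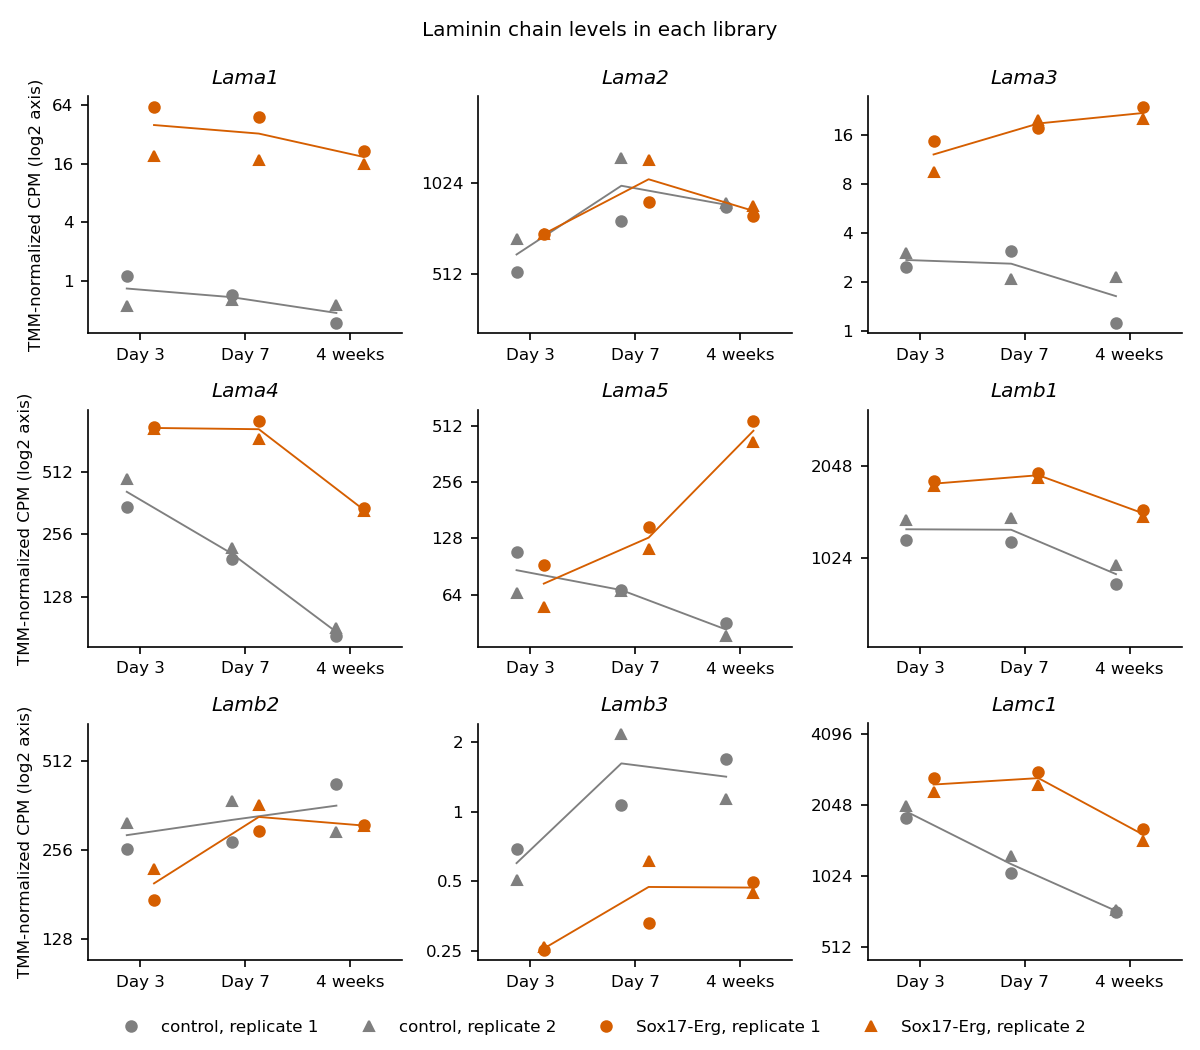
Level of each laminin chain in CPM (log2 axis) in all 12 libraries, by time point. Circles are replicate 1, triangles replicate 2 and lines join the means of 2 libraries. *Lama1* and *Lama3* libraries with *Sox17*-*Erg* lie above all control libraries, *Lama4* and *Lamc1* are lower at 4 weeks than at Day 3 in both treatments, and *Lama5* falls in control and rises with *Sox17*-*Erg*.

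*Lama4* (ENSMUSG00000019846, chromosome 10, 38965515 to 39110188) encodes the alpha chain typical of endothelial basement membranes, and fibroblasts make it too. Control libraries had 346 and 472 CPM at Day 3, 193 and 220 CPM at Day 7 and 82.6 and 90.4 CPM at 4 weeks. *Sox17*-*Erg* libraries had 840 and 820 CPM at Day 3, 899 and 738 CPM at Day 7 and 341 and 330 CPM at 4 weeks. The 2 treatments did not overlap at any time point. In *Sox17*-*Erg* it was higher by a log2 fold change of 1.02 ± 0.17, 1.99 ± 0.18 and 1.96 ± 0.18 in order of time (adjusted p = 0.00873, 0.0002 and 0.000117). Over time the gene fell in both, with a log2 change from Day 3 to 4 weeks of -2.24 ± 0.18 in control and -1.31 ± 0.17 in *Sox17*-*Erg* (adjusted p = 0.000173 and 0.00127). The difference between these falls, 0.93 ± 0.24, missed the threshold (adjusted p = 0.0786). The *Sox17*-*Erg* level at 4 weeks was below the control level at Day 3.

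*Lama5* (ENSMUSG00000015647, chromosome 2, 180176373 to 180225859) encodes the alpha chain that mature endothelial and epithelial basement membranes hold. At Day 3 the treatments overlapped, with 108 and 64.9 CPM in control and 91.8 and 54.8 CPM in *Sox17*-*Erg*. At Day 7 they were 68.1 and 67.2 CPM against 146 and 112 CPM. At 4 weeks they were 44.9 and 38.4 CPM against 544 and 418 CPM. These were log2 fold changes of -0.24 ± 0.29, 0.93 ± 0.29 and 3.53 ± 0.32 (adjusted p = 0.626, 0.0575 and 0.000119). At Day 7 the 2 groups did not overlap, and with same-numbered libraries paired within each time point the gene was called (0.92 ± 0.11, adjusted p = 0.00204). It was also called at Day 7 by DESeq2's Wald test (adjusted p = 0.0143), without a filter on low counts (0.000534), with 1 shared block for each replicate number (0.0101) and with each time point fitted alone (0.0483). From Day 3 to 4 weeks *Lama5* rose by 2.72 ± 0.31 in *Sox17*-*Erg* and changed by -1.05 ± 0.29 in control (adjusted p = 0.000734 and 0.0285). The fall in control was not called without replicate 1 of control at Day 3 (adjusted p = 0.211), nor without replicate 1 or replicate 2 of control at 4 weeks (0.093 and 0.125). The effect at 4 weeks exceeded that at Day 3 by 3.77 ± 0.42 (adjusted p = 0.00409). *Lama5* was the 1 chain of 9 called for this difference between time points, where 2.22% of all tested genes were called for a higher and 0.987% for a lower effect at 4 weeks. DESeq2 called 4 of the 9. The difference was not particular to *Lama5*, since edgeR also called it higher for 6 of 15 basement membrane partners (*Agrn*, *Col18a1*, *Ntn4*, *Pxdn*, *Col4a3* and *Col4a4*), for 3 of 11 laminin receptors (*Itgb4*, *Mcam* and *Bcam*) and for *Lamc3*, a laminin gene outside the 9 (3.89 ± 0.82, adjusted p = 0.0386). Without any 1 library of Day 3 or 4 weeks these calls fell to 1 to 4 partners and 1 to 2 receptors, and that of *Lamc3* held only without a *Sox17*-*Erg* library of Day 7 (adjusted p of up to 0.149 without others).

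Markers of other cells differed at 4 weeks too, with members that went opposite ways. At 4 weeks 11.9% of all tested genes were called higher than control and 11.0% lower. Of the 5 mural and smooth muscle markers, 3 exceeded control and 2 were below it then by the test. They summed to 253 to 311 CPM in *Sox17*-*Erg* against 48.6 to 82.1 CPM in control, and to 21.0 to 27.1 CPM in *Sox17*-*Erg* at Day 3, and all 5 had counts. *Myh11*, the smooth muscle myosin, made up most of the sum, with 278 and 223 CPM against 55.9 and 35.3 CPM in control. Of the pericyte markers, *Rgs5* was higher, with 18.3 and 14.5 CPM against 3.08 and 1.83 CPM in control. *Abcc9* was lower, with 2.58 and 3.81 CPM against 21.9 and 10.2 CPM. *Kcnj8* was lower too, with 0.106 and 0.185 CPM (3 and 5 counts) against 1.08 and 0.406 CPM. The 7 endothelial markers had 6 called higher and 0 lower than control at 4 weeks, beside the same 11.9% and 11.0% of all tested genes. These 7 summed to 309 to 434 CPM at Day 3 and 560 to 704 CPM at 4 weeks in *Sox17*-*Erg*. Within *Sox17*-*Erg*, 1 of the 7 was called higher at 4 weeks than at Day 3 and 1 was lower, shares near the 15.1% and 15.6% of all tested genes, with a median log2 change of -0.29. The higher one was *Pecam1*, at 23.6 and 23.0 CPM and then 117 and 94.6 CPM, and the lower one was *Kdr*, at 106 and 42.3 CPM and then 36.0 and 25.6 CPM. Of the 6 fibroblast markers, 3 were called lower and 1 higher than control at 4 weeks, beside 11.0% and 11.9% of all tested genes. *Dcn* had 224 and 301 CPM against 2853 and 2349 CPM in control, *Pdgfra* 330 and 335 against 1656 and 1609 CPM, and *Tcf21* 86.5 and 118 against 542 and 361 CPM. The higher one, *Postn*, had 1542 and 1345 CPM against 60.3 and 47.5 CPM. These marker genes were picked after their values were seen. The 5 mesothelial and epicardial markers were lower in *Sox17*-*Erg*, at 158 to 247 CPM against 868 to 1364 CPM in control at 4 weeks. The 5 macrophage markers were at 54.3 to 271 CPM against 40.4 to 364 CPM, and the 4 cardiomyocyte markers at 676 to 681 CPM against 1052 to 1304 CPM. The 3 epithelial markers summed to 0.248 to 0.407 CPM in *Sox17*-*Erg* and the 3 Schwann markers to 0.991 to 3.26 CPM. The part of these marker differences in the level of *Lama5* was not tested.

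*Lama2* (ENSMUSG00000019899, chromosome 10, 26980036 to 27619758), whose product is the alpha chain of muscle and stromal laminin, had the highest level per kb of the alpha chains in control cells at Day 7 and 4 weeks. Control libraries had 519 and 668 CPM at Day 3, 766 and 1244 CPM at Day 7 and 857 and 881 CPM at 4 weeks. *Sox17*-*Erg* libraries had 693 and 696 CPM at Day 3, 890 and 1222 CPM at Day 7 and 800 and 858 CPM at 4 weeks. The treatments overlapped at Day 7 and at 4 weeks, and at Day 3 both *Sox17*-*Erg* libraries were above both controls by a small margin. Its log2 fold changes were 0.23 ± 0.24, 0.07 ± 0.24 and -0.07 ± 0.24 (adjusted p = 0.575, 0.872 and 0.878). An unnamed gene model on the opposite strand, *Gm48084*, shares exon sequence with it.

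*Lamc1* (ENSMUSG00000026478, chromosome 1, 153218922 to 153332786) encodes the gamma chain of most laminins. Control libraries had 1799 and 2029 CPM at Day 3, 1051 and 1241 CPM at Day 7 and 716 and 735 CPM at 4 weeks. *Sox17*-*Erg* libraries had 2665 and 2316 CPM, 2824 and 2480 CPM, and 1611 and 1443 CPM. No *Sox17*-*Erg* library fell within the control range of its own time point. On the log2 scale *Lamc1* differed by 0.38 ± 0.17, 1.21 ± 0.17 and 1.07 ± 0.17 (adjusted p = 0.16, 0.00176 and 0.00206). Over time *Lamc1* changed by -1.40 ± 0.17 from Day 3 to 4 weeks in control (adjusted p = 0.000871) and by -0.71 ± 0.17 in *Sox17*-*Erg* (adjusted p = 0.013). The second fall was not called without replicate 1 of *Sox17*-*Erg* at Day 3 (adjusted p = 0.102) or without replicate 1 or replicate 2 of *Sox17*-*Erg* at 4 weeks (0.052 and 0.065). The effect at 4 weeks differed from that at Day 3 by 0.69 ± 0.23 (adjusted p = 0.164).

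*Lamb1* (ENSMUSG00000002900, chromosome 12, 31265234 to 31329644) encodes the common beta chain. Control libraries had 1178 and 1370 CPM at Day 3, 1157 and 1381 CPM at Day 7 and 846 and 976 CPM at 4 weeks, and *Sox17*-*Erg* libraries 1826 and 1756, 1942 and 1874, and 1475 and 1394 CPM. Every *Sox17*-*Erg* library was above both control libraries of its time point. The differences were small, at 0.49 ± 0.16, 0.59 ± 0.16 and 0.66 ± 0.16 on the log2 scale (adjusted p = 0.0726, 0.0332 and 0.0168). The call at Day 7 was lost without any 1 of 9 libraries, at an adjusted p of up to 0.168. It held without replicate 1 of control at 4 weeks, replicate 2 of *Sox17*-*Erg* at Day 3 or replicate 2 of *Sox17*-*Erg* at 4 weeks. The call at 4 weeks was lost without replicate 1 of control at 4 weeks (0.115) or replicate 1 of *Sox17*-*Erg* at 4 weeks (0.088).

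*Lamb2* (ENSMUSG00000052911, chromosome 9, 108479736 to 108490530) encodes the beta chain of synapses, kidney glomeruli and vessels. At Day 3 it had 259 and 316 CPM in control and 173 and 222 CPM in *Sox17*-*Erg*. At Day 7 the values were 272 and 376 against 298 and 365 CPM, and at 4 weeks 429 and 295 against 311 and 309 CPM. The treatments overlapped at Day 7 and 4 weeks, and at Day 3 both *Sox17*-*Erg* libraries were below both controls. Fitted differences were -0.54 ± 0.23, 0.03 ± 0.23 and -0.22 ± 0.23 on the log2 scale (adjusted p = 0.151, 0.942 and 0.532). With same-numbered libraries paired within each time point, the Day 3 difference was called at -0.55 ± 0.14 (adjusted p = 0.0348).

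*Lamb3* (ENSMUSG00000026639, chromosome 1, 193207699 to 193343878) encodes the beta chain that pairs with the *Lama3* product in epithelial laminin. Its counts were low, at 11 to 68 in the control libraries and 5 to 14 in the *Sox17*-*Erg* libraries. Control libraries had 0.691 and 0.508 CPM at Day 3, 1.07 and 2.17 CPM at Day 7 and 1.70 and 1.14 CPM at 4 weeks, and *Sox17*-*Erg* libraries 0.253 and 0.258, 0.331 and 0.615, and 0.495 and 0.444 CPM. Each *Sox17*-*Erg* library was below both control libraries of its time point, the opposite order to *Lama3*. *Lamb3* had log2 fold changes of -1.22 ± 0.55, -1.80 ± 0.49 and -1.59 ± 0.49 (adjusted p = 0.174, 0.0352 and 0.0439). The call at Day 7 was lost without any 1 of 7 libraries and that at 4 weeks without any 1 of 8, at adjusted p of up to 0.26 and 0.226. The Day 7 call held without replicate 1 of control at Day 7, either control library at 4 weeks, replicate 1 of *Sox17*-*Erg* at Day 3 or replicate 2 of *Sox17*-*Erg* at Day 7, and the 4-week call held without any 1 library of Day 7. With 1 shared block for each replicate number, the call at 4 weeks was also lost (adjusted p = 0.0516), as it was by DESeq2's Wald test (adjusted p = 0.0615) and without a filter on low counts (adjusted p = 0.0524). Repeated sequence in its long 5′ transcripts is shared with many other genes and covers 1.33% of its 31-base words. Such low counts are uncertain, and the part of the shared sequence in them was not tested.

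A further test took the 3 time points of a chain as 1 comparison, exchanging labels only among the libraries of a time point. The exact two-sided permutation test can then go no lower than p = 0.00926, while 2 libraries against 2 at 1 time point cannot go below 0.333. The mean difference in log2 CPM was 5.22 for *Lama1*, 2.90 for *Lama3*, 1.66 for *Lama4*, 0.89 for *Lamc1*, 0.58 for *Lamb1* and -1.35 for *Lamb3*, each at that smallest p in this exact permutation test. It was 1.40 for *Lama5* (p = 0.0648, exact permutation), 0.09 for *Lama2* (p = 0.565) and -0.23 for *Lamb2* (p = 0.167). This test was run on each of the 9 chains and on no other gene, so no share of all tested genes can be set beside these results. With levels exchanged only within same-numbered pairs, an alternative chosen after seeing the data, the smallest possible p was 0.03125, and the 6 chains at the smallest p above were again at the smallest p (exact permutation).

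The makeup of the alpha chains was compared as the share of each gene in the counts per kb of transcript, since a longer transcript gives more counts. In control the share of *Lama2* went from 44.9% ± 0.44 (SD, n = 2) at Day 3 to 71.4% ± 5.48 at Day 7 and 83.3% ± 0.19 at 4 weeks. In *Sox17*-*Erg* it was 32.7% ± 1.24, 41.9% ± 9.10 and 45.9% ± 3.60. The share of *Lama4* went the other way, from 49.0% ± 2.53 over 24.1% ± 4.21 to 13.2% ± 0.56 in control and from 62.0% ± 1.16 over 51.7% ± 7.44 to 29.5% ± 0.20 in *Sox17*-*Erg*. At each time point, both *Sox17*-*Erg* libraries held a smaller share of *Lama2* and a larger share of *Lama4* than both controls. Averaged over the time points, the share of *Lama2* differed by -26.4 percentage points and that of *Lama4* by 18.98 points between *Sox17*-*Erg* and control, each with an exact permutation p of 0.00926. A lower share of *Lama2* stands beside a level that passed no test, since shares of a fixed sum move with the other chains.

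The third large part of the alpha chains was *Lama5*. Its share in control was 5.77% ± 2.92, 4.25% ± 1.16 and 3.37% ± 0.44 in order of time. In *Sox17*-*Erg* it was 2.89% ± 0.94, 4.33% ± 0.84 and 22.4% ± 3.50. Both *Sox17*-*Erg* libraries lay below both controls at Day 3, the groups overlapped at Day 7, and the order was turned at 4 weeks, so that the mean difference over the time points, 5.42 points, did not pass (p = 0.269, exact permutation). *Lama1* and *Lama3* stayed minor chains. *Lama1* took 0.0456% to 0.0678% of the alpha chains in control groups and 1.05% to 1.87% in *Sox17*-*Erg* groups. *Lama3* took 0.143% to 0.190% and 0.521% to 1.11%. Both were larger in every *Sox17*-*Erg* library than in the controls of its time point (exact permutation p = 0.00926 for each).

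**Figure D3:**
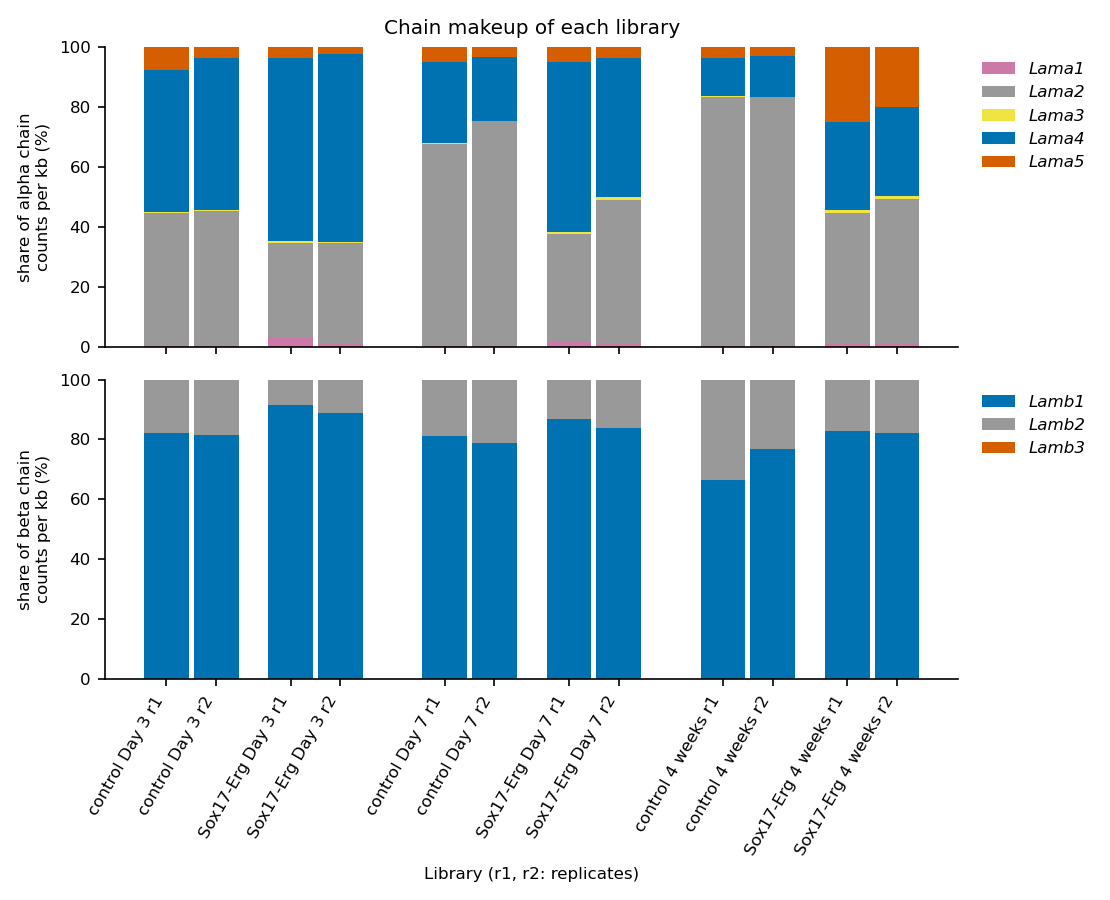
Share of each alpha chain (top) and each beta chain (bottom) in the counts per kb of its class, in percent, with 1 bar for each of the 12 libraries. The *Lama2* share of control bars grows from 44.9% at Day 3 to 83.3% at 4 weeks, while at 4 weeks the *Sox17*-*Erg* bars hold 45.9% *Lama2*, 29.5% *Lama4* and 22.4% *Lama5*.

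Of the beta chains, *Lamb1* took 81.8% ± 0.52, 79.9% ± 1.69 and 71.7% ± 7.38 in control and 90.2% ± 1.77, 85.3% ± 2.11 and 82.4% ± 0.51 in *Sox17*-*Erg*, in order of time. The share of *Lamb2* was 18.2% ± 0.53, 20.0% ± 1.65 and 28.1% ± 7.34 in control and 9.82% ± 1.77, 14.6% ± 2.10 and 17.6% ± 0.51 in *Sox17*-*Erg*. *Sox17*-*Erg* libraries held a larger share of *Lamb1* and a smaller share of *Lamb2* at each time point, with no overlap. The mean differences in share were 8.16 and -8.08 percentage points (exact permutation p = 0.00926 for each). The smaller share of *Lamb2* stands beside a level that was called at no time point in the main fit, since its share also moves with *Lamb1*. *Lamb3* stayed under 0.154% of the beta chains in every library. Over the 8 shares tested, 7 reached the smallest p that the permutations can give. Shares within a class have a fixed sum, so they are not separate results. No such test was run on other genes to set beside this count.

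Summed per kb, the alpha chains of control cells had 137 ± 23.1, 145 ± 38.2 and 109 ± 2.31 CPM per kb in order of time, and those of *Sox17*-*Erg* cells 221 ± 7.76, 262 ± 1.39 and 188 ± 5.49. The beta chains had 280 ± 31.7, 286 ± 41.7 and 229 ± 0.33 in control and 357 ± 2.86, 402 ± 0.10 and 313 ± 10.5 in *Sox17*-*Erg*. The gamma chain gene *Lamc1* had 251 ± 21.4, 150 ± 17.6 and 95.2 ± 1.77 in control and 327 ± 32.4, 348 ± 31.9 and 200 ± 15.7 in *Sox17*-*Erg*. In control at 4 weeks the gamma chain was thus at a lower level per kb than the alpha chains together, and at Day 3 at a higher one. In *Sox17*-*Erg* it was above the alpha chains in every group mean, with overlapping libraries between the 2 classes at 4 weeks.

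A further gamma chain gene was measured outside the 9. *Lamc3*, a gamma chain of the retina, nerve and some vessels, had 5.96 and 3.19 CPM in control and 0.202 and 0.603 CPM in *Sox17*-*Erg* at Day 3, which were 4 and 14 counts. It was lower in *Sox17*-*Erg* by edgeR's test (-3.46 ± 0.68, adjusted p = 0.0156), a call lost without replicate 1 of control or of *Sox17*-*Erg* at Day 3 (adjusted p of up to 0.14). By 4 weeks it had 53.9 and 54.5 CPM in control and 58.8 and 87.3 CPM in *Sox17*-*Erg*, 2 groups that did not overlap but did not pass (0.43 ± 0.44, adjusted p = 0.529).

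Laminin sheets are joined to collagen IV by nidogens and perlecan (*Hspg2*). Of 15 such basement membrane partners, Day 3 had 1 called higher and 3 lower, Day 7 had 2 and 2, and the 4-week time point had 4 and 4. The shares of all tested genes were 7.19% and 5.13%, 9.48% and 7.93%, and 11.9% and 11.0%, so that the counts called higher at Day 3 and Day 7 were near them. Their median log2 fold change was -0.25, 0.18 and 0.15, beside 0.01, 0.01 and -0.01 for all tested genes. The 3 partners of highest mean CPM were called at no time point, with log2 fold changes of -0.25, 0.58 and 0.53 for *Col4a1*, of -0.33, 0.32 and 0.29 for *Col4a2* and of -0.36, 0.18 and 0.33 for *Hspg2*. *Nid1*, a nidogen that binds the gamma chain, was lower than in control at 4 weeks (-1.21 ± 0.22, adjusted p = 0.00461). Of the collagen IV chains of kidney-type basement membranes, *Col4a3* and *Col4a4* were lower at all time points and *Col4a5* was called at none (-0.55, -0.20 and -0.44). The values were -4.31 ± 0.27, -2.20 ± 0.23 and -1.58 ± 0.22 for *Col4a3* and -4.03 ± 0.29, -2.14 ± 0.26 and -1.83 ± 0.25 for *Col4a4* (largest adjusted p = 0.00121 for both genes). *Col4a3* and *Col4a4* lie head to head and are known to be expressed together.

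Partners that were higher at 4 weeks were *Ntn4*, a netrin that opens laminin networks by binding the gamma chain (3.78 ± 0.39, adjusted p = 0.000234), *Col18a1*, the source of endostatin (2.66 ± 0.32, adjusted p = 0.000577), *Pxdn*, the peroxidase that crosslinks collagen IV (1.79 ± 0.16, adjusted p = 0.00012), and *Agrn*, a proteoglycan that ties laminin to dystroglycan (1.52 ± 0.18, adjusted p = 0.000428). *Ntn4* had 6.76 and 11.97 CPM in control and 20.8 and 25.4 CPM in *Sox17*-*Erg* at Day 3, and 7.81 and 12.1 against 159 and 114 CPM at 4 weeks. It was also higher at Day 7 (2.83 ± 0.39, adjusted p = 0.00162) and only just called at Day 3 (1.31 ± 0.37, adjusted p = 0.0488), a call that held only without either control library of Day 7 (adjusted p of up to 0.233 without the other libraries). Neither *Agrn* nor *Col18a1* was called at Day 3 or Day 7. *Tinagl1*, a matrix protein of vessels, was lower at Day 3 (-1.39 ± 0.31, adjusted p = 0.0228), a call lost without any 1 of the 4 libraries of that day (adjusted p of up to 0.181). *Col4a6* was lower at 4 weeks (-1.19 ± 0.34, adjusted p = 0.0319), a call lost without replicate 1 of control or either *Sox17*-*Erg* library at 4 weeks (adjusted p of up to 0.212).

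**Figure D4:**
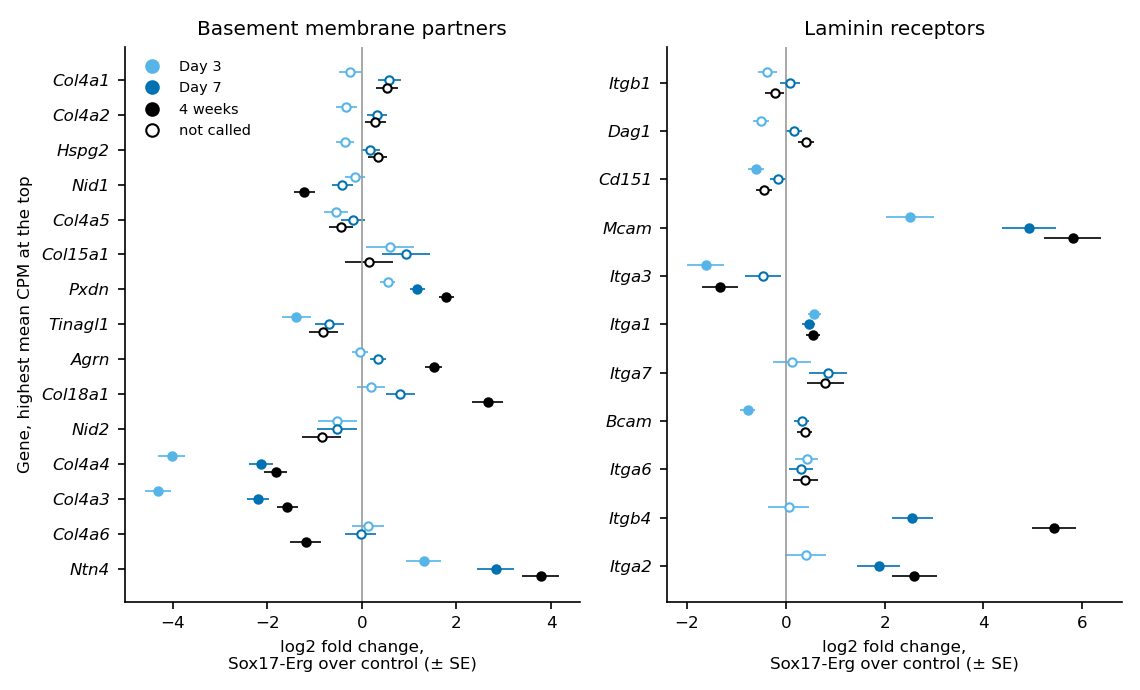
Log2 fold change of *Sox17*-*Erg* over control, with the SE of the fit, for 15 basement membrane partners (left) and 11 laminin receptors (right) at 3 time points, ordered by mean CPM. Filled points were called at an adjusted p under 0.05. *Itgb4* goes from 0.06 at Day 3 to 5.43 at 4 weeks, and *Col4a3* and *Col4a4* lie below 0 throughout.

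Of 11 laminin receptors, Day 3 had 2 called higher and 3 lower, Day 7 had 4 and 0, and the 4-week time point had 4 and 1. The same shares of all tested genes apply, with 7.19%, 9.48% and 11.9% called higher and 5.13%, 7.93% and 11.0% called lower in order of time. The 0 lower at Day 7 by edgeR was 0 as well at an unadjusted p under 0.05 and by DESeq2. The receptor of highest mean CPM, *Itgb1*, the beta subunit of most laminin-binding integrins, was called at none, with log2 fold changes of -0.37, 0.09 and -0.23. *Dag1*, which encodes dystroglycan, was at -0.51, 0.16 and 0.40 and was not called either. *Mcam*, a receptor for the *Lama4* product on vessels, had 71.0 and 53.6 CPM in control and 378 and 331 CPM in *Sox17*-*Erg* at Day 3, 14.7 and 8.28 against 497 and 197 CPM at Day 7, and 2.91 and 6.95 against 252 and 288 CPM at 4 weeks. Its log2 fold change was 2.51 ± 0.49, 4.92 ± 0.55 and 5.80 ± 0.58 (adjusted p = 0.0149, 0.000636 and 0.000198). Without replicate 1 or replicate 2 of control or replicate 1 of *Sox17*-*Erg* at Day 3, the Day 3 call was lost (adjusted p of up to 0.123).

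*Itgb4*, the integrin subunit that binds laminins of hemidesmosomes and is found on some arterial endothelium, had the pattern most like that of *Lama5*. It had 2.58 and 2.13 CPM in control and 3.09 and 1.85 CPM in *Sox17*-*Erg* at Day 3, 1.497 and 1.21 against 10.2 and 5.71 CPM at Day 7, and 1.08 and 0.813 against 53.8 and 28.8 CPM at 4 weeks. It differed by 0.06 ± 0.41, 2.56 ± 0.41 and 5.43 ± 0.45 on the log2 scale (adjusted p = 0.944, 0.00368 and 7.2e-05), and the effect at 4 weeks exceeded that at Day 3 by 5.37 ± 0.59 (adjusted p = 0.00398). Its partner subunit *Itga6* was called at no time point, with 0.42 ± 0.24, 0.31 ± 0.24 and 0.39 ± 0.25. Of the other alpha subunits, *Itga2* was higher at Day 7 (1.88 ± 0.44, adjusted p = 0.0189) and 4 weeks (2.60 ± 0.45, adjusted p = 0.00352) and *Itga1* was higher at each time point by 0.46 to 0.58 on the log2 scale (largest adjusted p = 0.0482). *Itga3* was lower at Day 3 and 4 weeks (-1.62 ± 0.37 and -1.33 ± 0.37, adjusted p = 0.0259 and 0.0293), and *Bcam* and *Cd151* at Day 3 (-0.78 ± 0.15 and -0.60 ± 0.16, adjusted p = 0.0159 and 0.0438). Apart from that of *Itga2* at 4 weeks, single libraries decided these calls, with adjusted p of up to 0.294 without them. At Day 3 that of *Itga1* was lost without any 1 of the 4 Day 3 libraries, that of *Itga3* without replicate 1 of control or either *Sox17*-*Erg* library, and that of *Bcam* without either control library or replicate 1 of *Sox17*-*Erg*. The call of *Cd151* held only without either control library of Day 7 or replicate 2 of *Sox17*-*Erg* at Day 3 or Day 7. At Day 7 that of *Itga1* held only without replicate 1 of control at 4 weeks, and that of *Itga2* was lost without replicate 2 of control or replicate 1 of *Sox17*-*Erg*. At 4 weeks that of *Itga1* was lost without replicate 2 of control or either *Sox17*-*Erg* library, and that of *Itga3* without replicate 1 of control or either *Sox17*-*Erg* library. *Itga7* was not called, at 0.13, 0.85 and 0.80.

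Another list held 12 enzymes that build the laminin-binding sugar of dystroglycan. At Day 3 edgeR called 0 of 12, where 1 was higher at an unadjusted p under 0.05 and 1 by DESeq2, beside 7.19% called higher and 5.13% lower among all tested genes. At Day 7 and at 4 weeks 1 was called higher, a share near the 9.48% and 11.9% of all tested genes. That gene was *Pomgnt1* in both cases (0.40 ± 0.11 and 0.54 ± 0.11, adjusted p = 0.0334 and 0.00692), and the Day 7 call was lost without any 1 of 11 libraries (adjusted p of up to 0.26), all but replicate 2 of *Sox17*-*Erg* at Day 7.

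Over time, *Lama4* and *Lamc1* were called lower in both cultures. From Day 3 to 4 weeks, 0 of the 9 chains were called higher and 3 lower in control (*Lama4*, *Lama5* and *Lamc1*), beside 13.9% and 12.6% of all tested genes. The 0 called higher by edgeR was 2 at an unadjusted p under 0.05 and 0 by DESeq2. In *Sox17*-*Erg*, 1 was higher (*Lama5*) and 2 were lower (*Lama4* and *Lamc1*), beside 15.1% and 15.6%. The median log2 change of the chains was -0.77 in control and 0.25 in *Sox17*-*Erg*.

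The gene with the most similar pattern was named for each chain by Pearson's r of log2 CPM over the 12 libraries, as a description, since the points share the treatment and the time points. For *Lama4* it was *Lamc1* (r = 0.990), and for *Lamc1* it was *Lama4*. *Lama1* was nearest to *Uaca* (r = 0.990) and *Kdr*, a VEGF receptor (r = 0.988). *Lama5* was nearest to *Itgb4* (r = 0.977) and *Klf4* (r = 0.964), and *Lama3* to *Pdgfb* (r = 0.986) and *N4bp3* (r = 0.986). The second gene for *Lama4* was *Cemip2* (r = 0.979) and for *Lamc1* it was *Map2* (r = 0.974). *Lamb1* was nearest to *Tgif2* (r = 0.971) and *Vash1* (r = 0.970), *Lamb2* to *Adamts2* (r = 0.948) and *Creld1* (r = 0.944), and *Lamb3* to *Mknk1* (r = 0.982) and *Il27ra* (r = 0.981). *Lama2* had the loosest match, with *Mau2* (r = 0.903) and *Spns2* (r = 0.893).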

How the data were processed

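Estimated counts per gene were deposited as whole numbers. The authors demultiplexed stranded 2 × 50 paired-end reads with bcl2fastq 2.20.0, trimmed high GC content with BBDuk and quantified them with Salmon. The submitters' processing notes name mm10, and the Salmon version and annotation are not given in the sources used here. Symbols, positions and transcript lengths were taken from GENCODE M21 (GRCm38), which held 35422 of the 35727 genes.

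In R 4.3.3, edgeR 4.0.16 was run with TMM factors, filterByExpr (minimum count 10, minimum total 15), 1 mean for each of 6 groups and 6 residual degrees of freedom, on all 12 libraries. Samples were grouped from their labels. The scripts were tested on simulated data. Alternatives included DESeq2 1.42.0, other filters, a GC-content offset, replicate blocks (for the permutation over time points one added after seeing the data) and leaving out each library. Libraries with the same number deviated together from their group means (r = 0.186, 0.301 and 0.171 over the tested genes, in order of time). The replicate number in the labels was therefore taken to pair libraries in the alternatives with pairing. The main fits and permutations used no pairing. CPM plots and shares used no imputation. The named genes were all 9 chains, *Sox17* and *Erg*, listed partners and receptors, of the glycosylation enzymes the 2 of highest mean CPM and any called at 2 or more time points, and the 2 nearest patterns of each chain, of which some are not reported here. Chains and lists were chosen with earlier results of these data known. With 2 libraries a group, an SD is imprecise.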

Additional observations from a re-analysis of the deposited data

Results flagged for a closer look

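The effect of *Sox17*-*Erg* on *Lama5* differed between time points. The log2 fold change over control at 4 weeks exceeded that at Day 3 by 3.77 ± 0.42 (SE), with an adjusted p of 0.00409 in edgeR's quasi-likelihood test of the interaction, and both *Sox17*-*Erg* libraries were above both control libraries at 4 weeks but not at Day 3.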

How the results depend on the processing

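In order of time, 3, 6 and 7 chains were called. Leaving out 1 library gave 1 to 3, 4 to 6 and 5 to 7 chains, 2 to 4 for the change over time in control, 2 to 5 for that in *Sox17*-*Erg* and 1 throughout for the difference in effect. It gave 4 alpha and 3 beta chain shares throughout and 6 to 7 chains in the test over all time points. The GC-content offset with the replicate block within each time point gave 5 chains at Day 3, where 13.1% of all tested genes were called higher and 10.8% lower. The replicate block alone within each time point gave 4, 7 and 7 chains in order of time. It called 12.7%, 13.8% and 15.5% of all tested genes higher and 10.4%, 13.3% and 15.5% lower. With 1 shared replicate block there were 3, 7 and 6 chains, beside 7.93%, 10.1% and 12.4% higher and 6.64%, 9.42% and 12.2% lower. Beyond the calls named above for *Lama5*, *Lamb2* and *Lamb3*, the pairing changed no call of a chain in edgeR without the GC offset. With 1 shared block the receptors *Cd151* at Day 3 and *Itga1* at Day 7 were not called (adjusted p = 0.0507 and 0.0577). With pairing, the shares gave 4 alpha and 3 beta chains. For the change over time in *Sox17*-*Erg*, 3 chains were called, 5 by DESeq2's Wald test and 6 without a filter on low counts. For the difference in effect between 4 weeks and Day 3, 1 chain was called, 4 by DESeq2, 3 without a filter and 2 with a filter of CPM of at least 1 in 2 libraries. The cause of these differences was not tested. Values that passed no test turned sign when 1 library was left out. This held for *Lama5* at Day 3 (-0.70 to 0.17), *Lama2* and *Lamb2* at Day 7 (-0.26 to 0.46 and -0.21 to 0.29), *Lamb2* at 4 weeks (-0.46 to 0.072), *Lama1* over time in *Sox17*-*Erg* (-1.08 with all libraries, -1.69 to 0.033, above 0 without replicate 1 at Day 3) and in the difference in effect (-0.81 to 0.92), and the mean difference of *Lama2* over the time points, which ran from -0.028 to 0.21. At an adjusted p under 0.01 neither *Lamb1* nor *Lamb3* was called. Fitted with each time point alone, neither passed at Day 7 or 4 weeks.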
